A study of Mus musculus with 8 samples.

Results

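The genes described here are the pancreatic amylases, lipases and colipase of the mouse, the secreted enzymes that digest starch and fat. They are Amy1, Amy2a5, Amy2b, Pnlip, Pnliprp1, Pnliprp2, Clps, Cel and Pla2g1b. The 9 genes were taken by symbol from a table of 16888 genes, and all 9 were found and passed the filter on low values. Their levels were compared between 4 pancreas libraries from mice lacking Anxa1 in myeloid cells, called CKO1 to CKO4, and 4 from mice with floxed Anxa1 alleles (Anxa1 flox/flox), called WT1 to WT4. All 8 samples, controls included, came from animals injected repeatedly with cerulein, a peptide that overstimulates acinar cells and brings on acute pancreatitis, so no uninjected pancreas was compared. The labels name no Cre driver, strain or age, and do not say whether each library is a separate animal. The p-values therefore measure the spread between these libraries, which may be technical in part.

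Acinar cells store digestive enzymes in zymogen granules and release them into the duct when cholecystokinin or acetylcholine acts on them. Amylase cuts starch into short sugars. Pancreatic lipase cuts triglycerides at the surface of fat droplets, and needs colipase to stay bound there in the presence of bile salts. Carboxyl ester lipase and the secreted phospholipase A2 act on cholesteryl esters and phospholipids. Release of amylase and lipase into blood is the standard laboratory sign of pancreatitis, but that is protein leaving the cell. The values here are transcript levels in the tissue.

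Levels are given as deposited RPKM, read numbers scaled to gene length and to the reads of the library. Comparison between genes rests on the gene lengths used, and comparison between libraries can be shifted by the make-up of each library. The library totals recovered from these values ran from 30469002 to 34359802 reads. Acinar markers, which define the labelled tissue, were high in all 8 libraries, with Cpa1 between 15649.6 and 20777.5 RPKM. The targeted gene Anxa1, measured in whole tissue, was lower in CKO (5.48 ± 1.11 against 9.98 ± 3.33 RPKM, SD, n = 4 each, adjusted p = 0.0417 by limma), although CKO4 at 7.13 RPKM lay above WT3 at 7.05 RPKM. Over all 8513 genes tested by limma on log2(RPKM + 1), 121 were higher in CKO (1.42%) and 489 were lower (5.74%) at an adjusted p under 0.05. The median log2 change was -0.12, and centring each library on its median moved it to -0.02 and the calls to 305 higher and 267 lower.

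The amylase genes lie side by side on the minus strand of chromosome 3, and their sequences show how much the copies share. Amy2b occupies chr3:113147656-113156727 and Amy2a5 chr3:113247178-113258837 in GENCODE M21 (mm10). The nearly identical copies Amy2a4, Amy2a3, Amy2a2 and Amy2a1 follow, and Amy1 lies at chr3:113555710-113606699. Amy2b is annotated as an unprocessed pseudogene in GENCODE and as protein-coding in RefSeq. A 90-base stretch of coding sequence (for Amy2b, of the matching exon) is shown from 4 of the copies to let the copies be compared, 5′ to 3′ on the minus strand of GRCm38, with capitals marking each base that differs from Amy2a5.
Amy2a5, chr3:113258087-113258176: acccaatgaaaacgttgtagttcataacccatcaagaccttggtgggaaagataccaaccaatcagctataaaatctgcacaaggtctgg
Amy2a1, chr3:113531678-113531767: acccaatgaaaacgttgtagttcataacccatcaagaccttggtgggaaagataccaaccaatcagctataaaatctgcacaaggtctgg
Amy2b, chr3:113156113-113156202: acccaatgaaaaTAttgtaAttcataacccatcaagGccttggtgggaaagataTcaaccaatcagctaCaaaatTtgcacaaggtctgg
Amy1, chr3:113569431-113569520: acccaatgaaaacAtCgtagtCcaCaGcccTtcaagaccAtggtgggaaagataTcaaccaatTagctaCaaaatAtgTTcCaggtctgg
Amy2a1 had 0 differences in this stretch, Amy2b 7 and Amy1 14. Over their annotated coding sequence of 1527 bases, Amy2a2, Amy2a3 and Amy2a4 were identical to Amy2a5, as were the 735 annotated coding bases of Amy2a1. Amy2b differed from Amy2a5 at 33 of 1563 aligned transcript bases (97.9% identical), and Amy1 was 89.4% identical in the coding sequence.

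This likeness bears on every amylase value. Of all 50-base words in the GENCODE transcripts, 57.2% of those of Amy2a5, 40.2% of those of Amy2b and 2.69% of those of Amy1 also occurred in another gene. At 150 bases the shares were 44.8%, 3.92% and 0%. For Amy2a1 the share was 94.9% at 50 bases and 94.2% at 150 bases. For Amy2a2, Amy2a3 and Amy2a4 it was 100% at both lengths. In Pnlip, Pnliprp1, Pnliprp2, Clps, Cel and Pla2g1b the share was 0% at both lengths. Reads from Amy2a5 and the other Amy2a copies could be assigned to each other, and no label says how such reads were counted. The gene lengths behind the deposited values also differed from GENCODE, being 1577 bases for Amy2a5 against 3715 and 1717 bases for Amy2a1 against 890, so levels of single copies are uncertain.

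The 250 bases before the RefSeq start (GRCm38.p6) are shown for the 3 genes that passed the threshold and, for comparison, for Pnlip, which did not. The RefSeq starts of Amy2a5 and Pnlip lie inside their GENCODE genes, and that of Pnliprp2 a few bases inside, so part of the Amy2a5 window, with both of its marked motifs, and all of the Pnlip window fall within a GENCODE gene model. Capitals mark the letters CANNTG, the E-box read by basic helix-loop-helix factors such as the acinar factor PTF1A, and TATAAA.
Amy2a5, chr3:113258700-113258949, minus strand: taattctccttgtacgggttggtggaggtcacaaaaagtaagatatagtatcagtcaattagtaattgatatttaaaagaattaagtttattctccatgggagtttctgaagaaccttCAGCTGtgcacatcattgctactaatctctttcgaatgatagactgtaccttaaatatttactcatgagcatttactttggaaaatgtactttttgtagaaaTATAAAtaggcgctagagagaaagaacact
Amy2b, chr3:113156728-113156977, minus strand: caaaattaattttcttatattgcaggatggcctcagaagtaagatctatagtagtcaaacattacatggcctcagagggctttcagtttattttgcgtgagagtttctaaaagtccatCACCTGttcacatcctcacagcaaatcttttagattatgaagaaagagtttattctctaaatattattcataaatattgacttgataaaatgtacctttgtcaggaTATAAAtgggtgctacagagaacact
Pnlip, chr19:58670115-58670364, plus strand: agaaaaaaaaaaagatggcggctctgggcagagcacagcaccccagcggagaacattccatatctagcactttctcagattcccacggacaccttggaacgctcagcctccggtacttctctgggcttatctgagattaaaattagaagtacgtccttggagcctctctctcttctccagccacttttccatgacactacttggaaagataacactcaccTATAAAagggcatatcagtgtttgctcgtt
Pnliprp2, chr19:58759473-58759722, plus strand: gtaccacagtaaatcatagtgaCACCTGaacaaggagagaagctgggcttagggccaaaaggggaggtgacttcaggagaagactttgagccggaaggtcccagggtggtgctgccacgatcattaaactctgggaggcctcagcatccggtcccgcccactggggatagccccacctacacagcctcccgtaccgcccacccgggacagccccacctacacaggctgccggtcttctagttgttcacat
CANNTG reads the same on both strands and includes the form CACCTG. That form, TTTCCC and TATAAA were searched on both strands, in these windows and in all promoters. Every TATAAA found in these windows lay on the strand of the gene. Amy2a5 and Amy2b both held 1 E-box, with its first base at position -132 counted back from the start, and in Amy2b it had the form CACCTG. The letters TATAAA lay at -30 in Amy2a5 and Pnlip and at -26 in Amy2b. The promoter of Pnliprp2 held CACCTG at -228, and none of these 4 windows held the letters TTTCCC on either strand. Of the 32851 promoters of this length, 66.2% held an E-box of any form, 17.2% the form CACCTG, 21.9% the letters TTTCCC and 12.4% the letters TATAAA. The 2 amylase windows aligned over 263 positions and were identical at 168 of them (63.9%), less than in the transcripts.

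The amylase copies Amy2a5 and Amy2b were 2.11-fold and 2.33-fold lower in CKO than in WT. Amy2a1, the copy given most amylase reads, was not detectably different, within the limit set by shared reads. Of the 9 genes, 2 were lower in CKO, beside 5.74% of all genes tested, and 1 was higher, beside 1.42%. In either direction 3 of 9 passed, beside 7.17%, and the other 6 did not. Groups did not overlap in 4 of the 9 genes, with CKO lower in 3 (beside 16.2% of all genes tested) and higher in 1 (beside 2.46%). The median log2 change was -0.03 over the 9 genes and -0.12 over all genes tested. In whole tissue, fewer cells of a type and less RNA per cell cannot be told apart.

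Amy2b, which shares fewer words with other genes than Amy2a5, gave the smallest p of the 9 genes. Libraries CKO1 to CKO4 held 131, 113, 118 and 138 RPKM, and libraries WT1 to WT4 held 254, 339, 279.9 and 289 RPKM. All 4 CKO libraries lay well below the lowest WT library, and WT2 was the highest. The means were 125 ± 11.3 and 291 ± 35.6 RPKM (SD, n = 4 each), 2.33-fold lower in CKO, with a log2 change of -1.21 (SE 0.11) and an adjusted p of 8.46e-05 by limma. These values rest on 5487 to 6313 reads per CKO library and 11428 to 15388 per WT library. Amy2b still shared 40.2% of its 50-base words with other genes, and Amy2a1 had far more reads. Reads of another copy assigned to Amy2b therefore cannot be told apart from a difference in Amy2b itself.

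Amy2a5, a pancreatic amylase gene, also fell. CKO1 to CKO4 measured 409, 218, 232 and 214 RPKM, whereas WT1 to WT4 measured 542, 595, 547 and 581 RPKM. The groups did not overlap, but CKO1 stood apart, closer to the WT libraries than to the other 3 CKO libraries. The means were 268 ± 94.3 and 566 ± 25.8 RPKM, 2.11-fold lower in CKO (log2 change -1.13, SE 0.18, adjusted p = 0.00541 by limma). Without CKO1 the log2 change was -1.35 (adjusted p = 1.95e-05). With reads shared among the copies, a shift of reads between Amy2a5 and another copy in CKO1 cannot be told apart from a difference in Amy2a5 itself.

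Amy1, which in mouse is the amylase of salivary gland and liver, was the lowest of the 9 genes. The CKO values were 49.96, 50.6, 42.8 and 44.3 RPKM in replicate order, and the WT values were 54.5, 69.1, 60.8 and 56.0 RPKM. Every CKO library lay below every WT library, though the gap from CKO2 to WT1 was small. The means of 46.9 ± 3.95 and 60.1 ± 6.57 RPKM gave a log2 change of -0.35 (SE 0.11), which missed the threshold (unadjusted p = 0.00873, adjusted p = 0.0763 by limma). The 7 salivary gland markers looked for gave no values and were not used here, and the liver marker Alb averaged 0.229 RPKM in CKO and 0.158 RPKM in WT.

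**Figure D1:**
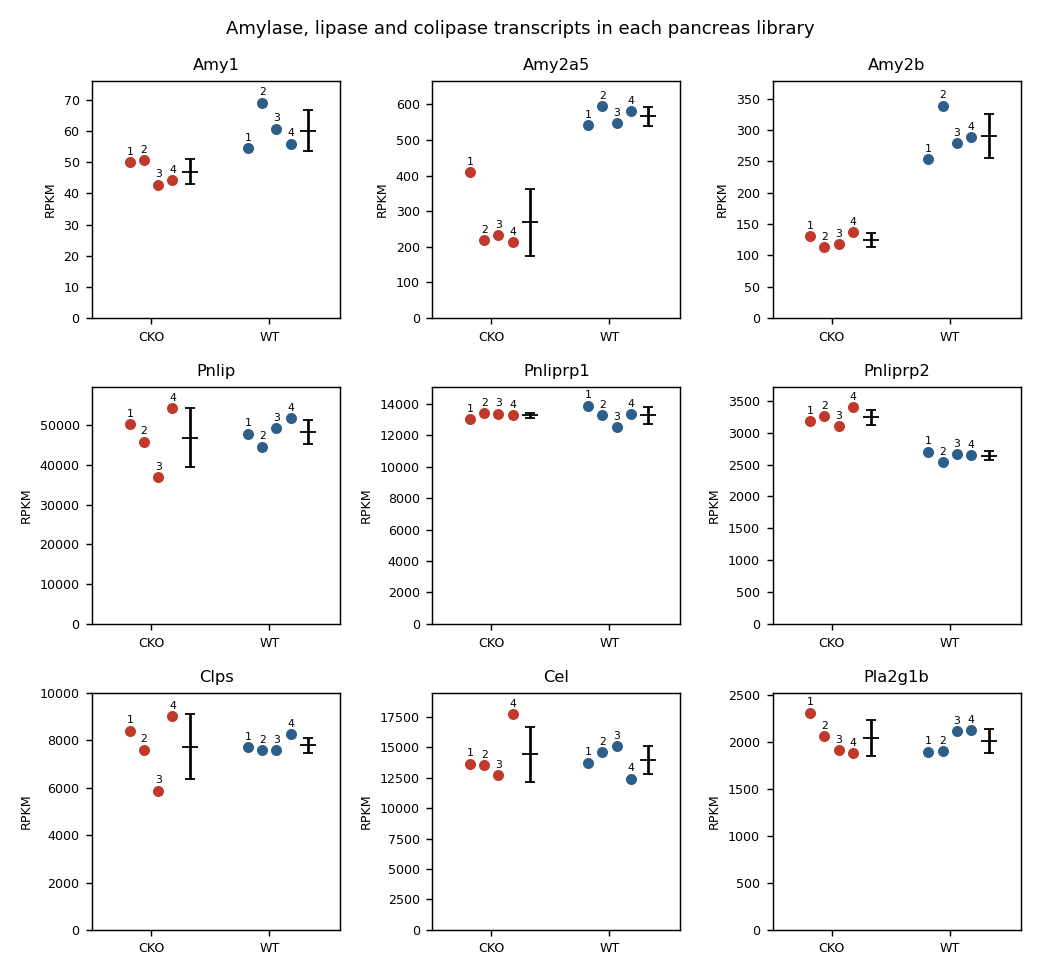
Level of each of the 9 genes in RPKM (vertical axis, from 0) in the CKO libraries (red) and WT libraries (blue), numbered by replicate, with the mean and SD of 4 libraries as bars. Amy2a5 and Amy2b are lower and Pnliprp2 is higher in every CKO library than in any WT library, while Pnlip, Pnliprp1, Clps, Cel and Pla2g1b overlap.

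None of the other 4 Amy2a copies passed the threshold, and their single levels rest on how shared reads were assigned. Amy2a1 stood at 17248, 17673, 15302 and 19082 RPKM in the CKO libraries, in replicate order, and at 17319, 14225, 18582 and 17020 RPKM in the WT libraries. The groups overlapped throughout, and the log2 change was 0.05 (95% interval -0.18 to 0.27, adjusted p = 0.80 by limma). Amy2a3 averaged 43.4 ± 10.4 RPKM in CKO and 56.8 ± 6.53 RPKM in WT (log2 change -0.40, adjusted p = 0.12), and Amy2a2 22.6 ± 10.5 and 26.03 ± 15.3 RPKM. Amy2a4 was 106.6 RPKM in CKO1 and between 11.2 and 16.4 RPKM in the other 3 CKO libraries, so the library with the most Amy2a5 among CKO also had the most Amy2a4. The WT libraries held 20.3 ± 6.65 RPKM of Amy2a4.

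**Figure D2:**
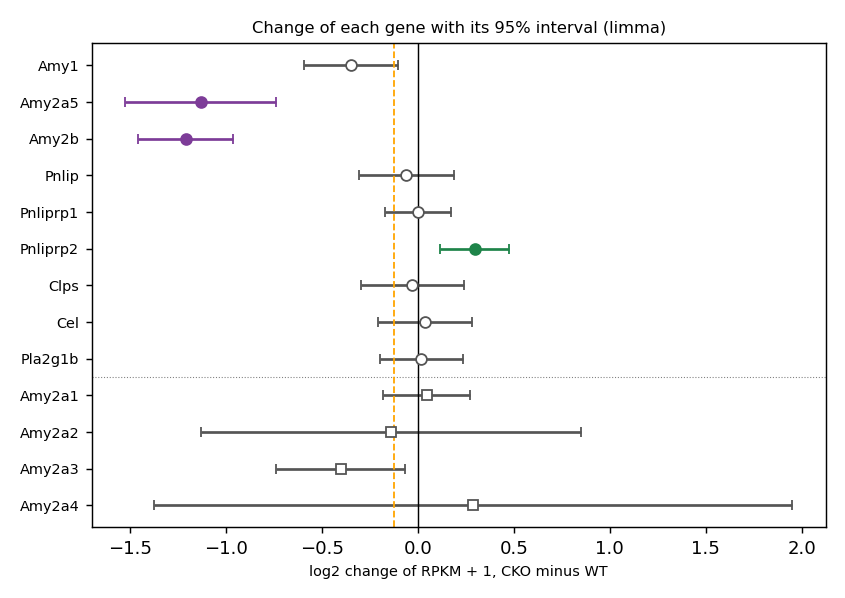
Log2 change of RPKM + 1, CKO minus WT, for the 9 genes (circles) and the other 4 amylase copies (squares), with 95% intervals from limma. Filled purple points passed the threshold as lower and the filled green point as higher, open points did not pass, and the dashed orange line is the median of all genes tested (-0.12).

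Summed over the 7 amylase genes, amylase took about the same share of library reads in both groups. Such shares do not give the amount of transcript in the tissue. All amylase reads made up 3.12, 3.12, 2.71 and 3.38% of the reads of the CKO libraries, and 3.15, 2.63, 3.36 and 3.11% of those of the WT libraries. The group means of 3.08 ± 0.275% and 3.06 ± 0.309% differed by less than the spread within either group. Reads assigned to Amy2a1 were 96.5 ± 1.05% of the amylase reads in CKO and 94.1 ± 0.868% in WT. Amy2a5, Amy2b and Amy1 together were 0.0685 ± 0.0158% of library reads in CKO and 0.141 ± 0.00985% in WT, a small part of the amylase total in both.

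The shares of Amy2a5 and Amy2b in the amylase reads were lower in every CKO library. Of these reads, Amy2a5 took 2.07, 1.10, 1.35 and 0.998% in CKO and 2.71, 3.57, 2.56 and 2.95% in WT. Amy2b took 0.592, 0.512, 0.615 and 0.576% in CKO and 1.14, 1.82, 1.18 and 1.32% in WT. The gap was wider for Amy2b than for Amy2a5, where CKO1 came nearest to WT. Counting error was small beside these differences: the Wilson 95% interval for Amy2a5 in CKO1 was 2.04 to 2.10%. Such intervals cover counting error only.

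**Figure D3:**
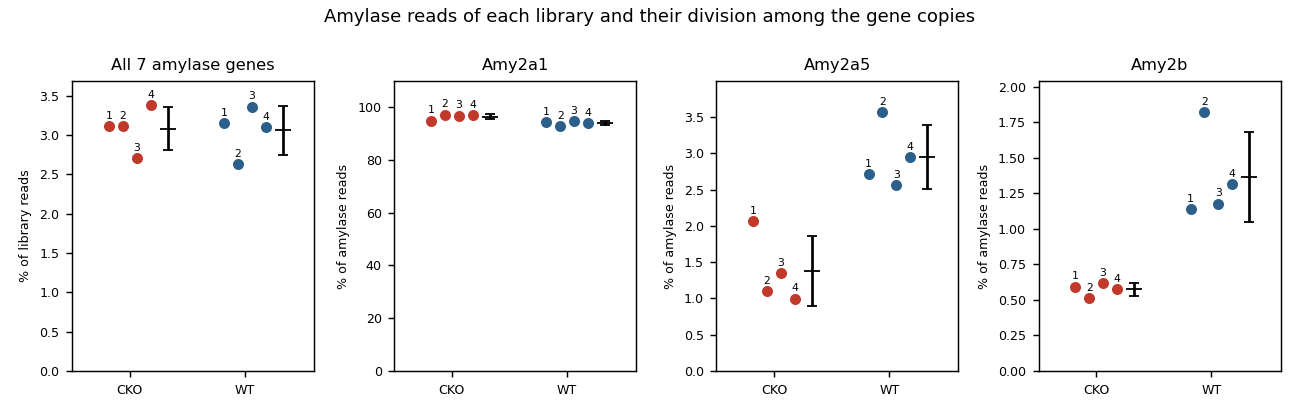
Reads of all 7 amylase genes as a percentage of library reads, and reads of Amy2a1, Amy2a5 and Amy2b as a percentage of amylase reads, in each numbered CKO (red) and WT (blue) library, with the mean and SD of 4. The first panel overlaps around 3.08 and 3.06%, whereas Amy2a5 and Amy2b are lower in all CKO libraries.

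Ratios within a library do not depend on its total. The log2 ratio of Amy2b to Amy2a1 was -7.12 ± 0.12 in CKO and -5.85 ± 0.32 in WT, with no overlap. The log2 ratio of Amy2b to Amy2a5 was -1.05 ± 0.43 and -0.97 ± 0.12, with overlapping groups and CKO1 farthest from the rest at -1.65. The reads of Amy2a1 to Amy2a5 and Amy2b summed to 1 feature gave a log2 change of 0.01, given as a value with no test.

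**Figure D4:**
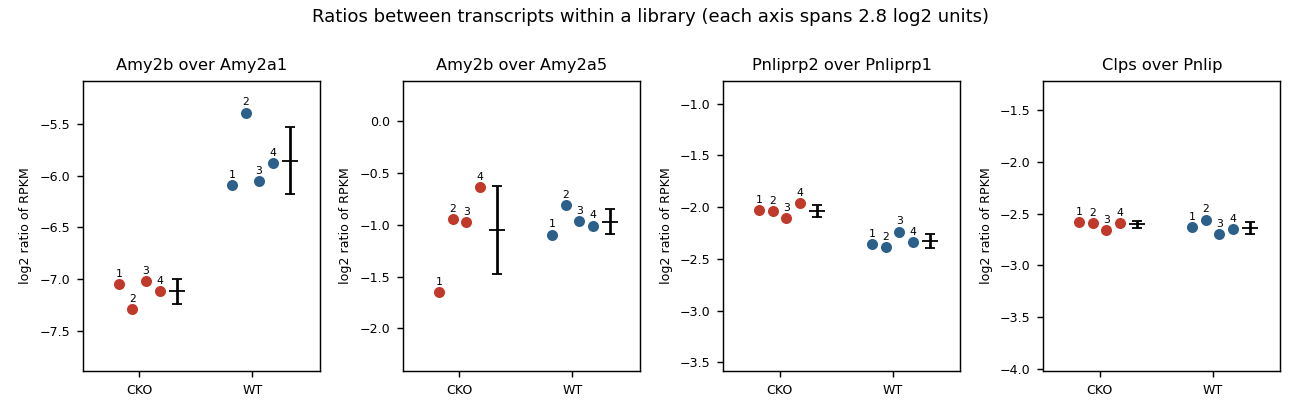
Log2 ratio of RPKM between pairs of genes within each numbered library, CKO in red and WT in blue, with the mean and SD of 4, on axes of equal span. Amy2b over Amy2a1 and Pnliprp2 over Pnliprp1 separate the groups, whereas Amy2b over Amy2a5 and Clps over Pnlip overlap.

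Among the lipases, colipase and phospholipase, 5 of 6 genes showed no detectable difference and Pnliprp2 was slightly higher in CKO. Their reads together were 13.3 ± 1.59% of library reads in CKO and 13.3 ± 0.343% in WT. The CKO libraries spread wider, from 11.3% in CKO3 to 15.2% in CKO4, and enclosed all 4 WT values. The 9 genes, the other 4 amylase copies and 28 other secreted acinar products together made up 58.5 to 67.4% of the reads in CKO. In WT they made up 59.5 to 62.6%, and their part in the spread was not tested. Where totals are given without digestive enzymes, this whole list is meant, although some of its products are not enzymes. The median log2 change of the 6 genes was 0.01.

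Pnlip (chr19:58652498-58681788), the main triglyceride lipase of pancreatic juice, was the most abundant of the 9 genes and ranked between 2 and 6 in the whole table. The 4 CKO libraries held 50234, 45875, 37017 and 54324 RPKM, and the 4 WT libraries 47858, 44604, 49258 and 51833 RPKM. CKO held both the lowest and the highest library. The means were 46863 ± 7415 and 48388 ± 3013 RPKM, with a log2 change of -0.06 (95% interval -0.31 to 0.19, adjusted p = 0.78 by limma), and this sign turned under another scaling.

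Clps (chr17:28558149-28560766), colipase, followed Pnlip closely. Its CKO values were 8411, 7614, 5879 and 9041 RPKM, and its WT values 7727, 7578, 7593 and 8275 RPKM. As for Pnlip, CKO3 was lowest and CKO4 highest. The log2 change was -0.03 (95% interval -0.29 to 0.24, adjusted p = 0.91 by limma), with a sign that also turned under another scaling. For each 1000 RPKM of Pnlip there were 165 ± 3.95 RPKM of Clps in CKO and 161 ± 6.53 in WT, with single libraries between 154 and 169.9.

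Next to Pnlip on chromosome 19 lie 2 lipase-related genes. Pnliprp1 (chr19:58728887-58744169), whose product has little triglyceride lipase activity, was the steadiest of the 9 genes, with 13029, 13399.6, 13377 and 13255 RPKM in CKO and 13883, 13258, 12535 and 13352 RPKM in WT. Its groups overlapped, and the log2 change was 0.00 (95% interval -0.17 to 0.17, adjusted p = 0.99 by limma).

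Pnliprp2 (chr19:58759719-58777534), whose product also cuts galactolipids and phospholipids, gave 3185, 3264, 3108 and 3398 RPKM in CKO and 2702, 2541, 2659.5 and 2642 RPKM in WT, in replicate order. Every CKO library lay above every WT library, and both groups were tight. The means of 3239 ± 124 and 2636 ± 68.3 RPKM, 1.23-fold higher in CKO, gave a log2 change of 0.30 (SE 0.08, adjusted p = 0.0498 by limma), at the edge of the threshold. The call was lost under 6 of the other settings (adjusted p = 0.0529 to 0.119) and when any single library except CKO3 was left out (up to 0.145), whereas the change stayed between 0.27 and 0.40. The log2 ratio of Pnliprp2 to Pnliprp1 was -2.03 ± 0.06 in CKO and -2.33 ± 0.06 in WT with no overlap, but the ratio of Pnliprp2 to Cel overlapped. Coding sequences of Pnlip, Pnliprp1 and Pnliprp2 are 64.3 to 68.5% identical, with no shared 50-base word.

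Cel (chr2:28555795-28563403), the bile salt-stimulated carboxyl ester lipase, gave 13665, 13552, 12720.2 and 17744 RPKM in CKO and 13739, 14569, 15104 and 12425 RPKM in WT. CKO4 was the highest and the groups overlapped, with a log2 change of 0.04 (95% interval -0.21 to 0.28, adjusted p = 0.86 by limma). Pla2g1b (chr5:115466262-115474722), the secreted phospholipase A2 made as a proenzyme, gave 2316, 2062, 1917 and 1886 RPKM in CKO and 1899.6, 1906, 2118 and 2131 RPKM in WT. CKO held both its highest and its lowest value, and the log2 change was 0.02 (95% interval -0.19 to 0.23, adjusted p = 0.92 by limma).

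Over all 8 libraries the order of levels per length was Pnlip, Cel, Pnliprp1, Clps, Pnliprp2, Pla2g1b, Amy2a5, Amy2b and Amy1. Pnlip averaged 47626 RPKM and Amy1 53.5 RPKM. Cel and Pnliprp1 were the neighbours whose order was not fixed, with Cel higher in 5 of 8 libraries. The ranges of Amy2a5 and Amy2b overlapped over the 8 libraries, yet Amy2a5 was the higher in each of them, within the limit set by shared reads. The other neighbours did not overlap.

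The genes nearest in profile were sought among 2364 tested genes with a mean of at least 10 RPKM, by the root mean square difference of centred log2(RPKM + 1) over the 8 libraries. Pnlip and Clps were each other's nearest gene, at a difference of 0.044. The protease gene Ctrl came next to Clps (0.065). Cel lay nearest to Pdia2 (0.072), a pancreatic protein disulfide isomerase, and Pla2g1b nearest to Selenof (0.072), Tmed6 (0.075) and the carboxypeptidase gene Cpb1 (0.086). Nearest to Pnliprp2 were Tmem248 (0.027) and the trypsinogen gene Try4 (0.077), and to Pnliprp1 Ociad1 (0.048). Amy2a5 and Amy2b, which themselves varied most (0.63 and 0.62 about their means), had no gene as near: the closest to Amy2a5 was Srsf6 (0.22) and the closest to Amy2b were Ifi30 (0.20), Rps27a (0.20) and Gadd45b (0.21). For Amy1 it was Mgat2 (0.072). These are descriptions over 8 libraries that share the 2 groups.

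Of 28 other secreted acinar products tested, 2 were higher and 2 were lower in CKO, with a median log2 change of 0.04 beside -0.12 over all genes. The trypsinogen genes Prss3 (2304 ± 405 against 1396 ± 199 RPKM, adjusted p = 0.0141) and Try4 (39691 ± 2693 against 30404 ± 1207 RPKM, adjusted p = 0.0206) were higher. The trypsin inhibitor Spink1 (890.0 ± 71.0 against 1346 ± 80.6 RPKM, adjusted p = 0.00551) and the elastase-family gene Cela3a (7.73 ± 1.23 against 11.5 ± 1.91 RPKM, adjusted p = 0.0478) were lower, all by limma. Sequence shared among the trypsinogen genes or among the elastase genes was not examined, so their single levels may have the same limit as the amylase copies.

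Among 11 acinar transcription factors tested, 1 passed, Foxa2, which was lower (1.88 ± 0.475 against 3.39 ± 0.420 RPKM, adjusted p = 0.0242 by limma). Ptf1a, which drives digestive enzyme genes, stood at 60.3 ± 9.10 RPKM in CKO and 48.1 ± 9.86 RPKM in WT (adjusted p = 0.19). Rbpjl, its partner in acinar cells, stood at 24.5 ± 2.35 and 27.9 ± 2.40 RPKM (adjusted p = 0.31). Neither of the tested receptors through which acinar cells are stimulated passed by limma. Chrm3 stood at 5.82 ± 0.531 RPKM in CKO and 4.44 ± 0.622 RPKM in WT (adjusted p = 0.108). Cckar stood at 5.98 ± 2.50 and 3.81 ± 0.596 RPKM (adjusted p = 0.16), with CKO1 highest at 9.40 RPKM. Insulin is known to raise amylase transcripts in rodent pancreas. Of 5 insulin signalling genes tested, Irs2 alone passed and was higher in CKO (1.70 ± 0.351 against 0.891 ± 0.125 RPKM, adjusted p = 0.0262 by limma). Irs2 lay near the filter of 1 RPKM and below it in WT1, WT2 and WT4 (0.758, 0.848 and 0.903 RPKM). It was therefore tested through its CKO libraries, and the call carries little weight. Ins1 stood at 457 ± 74.5 and 334 ± 94.9 RPKM (adjusted p = 0.15 by limma).

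Of 7 other lipases tested, 2 were lower in CKO and 0 were higher, with a median log2 change of -0.38. They were the intracellular triglyceride lipase Pnpla2 (9.89 ± 0.128 against 15.4 ± 3.30 RPKM, adjusted p = 0.0309) and lipoprotein lipase Lpl (5.55 ± 1.38 against 9.58 ± 1.99 RPKM, adjusted p = 0.0323), both by limma. Both act in fat cells as well. The adipocyte markers Adipoq and Cfd were highest in WT2, at 9.12 and 77.5 RPKM, and their part in these values was not tested. Also tested were 5 other phospholipases A2, 3 genes of starch and glycogen breakdown and 6 genes of triglyceride synthesis. Of these, 0 passed in either direction by limma at an adjusted p under 0.05, the smallest being 0.0594 for Pla2g15. Pla2g15 was below the filter of 1 RPKM in CKO1, CKO2 and CKO4 (0.892, 0.938 and 0.528 RPKM). It was therefore tested through its WT libraries.

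Markers of other cells moved with the groups in part. Of 7 macrophage markers 1 was lower in CKO, Tyrobp (22.9 ± 6.65 against 38.7 ± 7.60 RPKM, adjusted p = 0.0470), and the summed level of the list was 147 to 320.5 RPKM in CKO and 279.6 to 550.2 RPKM in WT. Of 6 duct markers tested 1 was lower, Sox9 (adjusted p = 0.0212), with summed levels of 311 to 575 and 594 to 688 RPKM. Of 7 islet markers 1 was higher, Gcg (adjusted p = 0.0451), with summed levels of 1303 to 2051 and 855 to 1646 RPKM. Of 6 neutrophil markers 0 passed, with S100a9 at 14.6 ± 7.503 and 33.9 ± 11.3 RPKM (adjusted p = 0.0763) and summed levels of 15.2 to 51.9 and 40.3 to 86.4 RPKM. Of 4 endothelial markers tested 1 was lower, Kdr (1.10 ± 0.211 against 2.10 ± 0.487 RPKM, adjusted p = 0.0278 by limma). Kdr was below the filter of 1 RPKM in CKO2 and CKO4 (0.924 and 0.993 RPKM), so it was tested through its WT libraries. Pecam1, Cdh5 and Plvap had log2 changes of 0.01, 0.03 and -0.01. The summed levels of the endothelial list were 27.0 to 35.1 RPKM in CKO and 28.3 to 40.1 RPKM in WT. None of the 5 B and plasma cell markers reached the filter, and Jchain was highest in WT2 (7.21 RPKM) and WT3 (2.58 RPKM) and at most 0.209 RPKM in the other 6 libraries. Of 6 stellate cell and fibroblast markers 0 passed. The 6 acinar markers gave 0 calls and summed to 159751 to 179515 RPKM in CKO and 154653 to 173675 RPKM in WT. The part of these cells in the Amy2a5, Amy2b and Pnliprp2 differences was not tested.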

How the data were processed

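RNA from whole mouse pancreas was sequenced in 8 libraries, 4 per group. The values were deposited by the authors as RPKM, read from the numbers, since no unit is named: 16056 of 16068 genes above 0 in at least 2 libraries (99.93%) gave whole reads within 0.05 reads. The other 12 genes were kept and also left out. The build was mm10, per the submitters' processing notes. No label names the aligner, the counter or the filters. An unnamed value column (1 in number, holding 8 numbers) was not used. The 8513 genes reaching 1 RPKM in 4 libraries or more were fitted with limma 3.58.1 in R 4.3.3 on log2(RPKM + 1), group only, with trended and robust variances and Benjamini-Hochberg adjustment over all of them, threshold 0.05. Intervals are those of limma, and values are mean ± SD. Folds are ratios of mean RPKM. Shares, ratios, words and motifs were computed with Python 3.11.15 and Biopython 1.88, and promoters are from RefSeq (8 of 9 genes matched). The genes and lists were chosen with earlier results of these data known, and gene lists are described by counts and medians only. Named genes were the 9 enzymes, Anxa1, list members past the threshold or with the smallest p (up to 4 per list), defining markers and the 3 nearest profiles per gene. A gene among the nearest profiles is not reported here. The fit was tested on simulated data. Alternatives were another pseudocount, other filters, an untrended variance, limma-voom on the recovered reads, other scalings, a replicate block, summed amylase copies and leaving out each library.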

Additional observations from a re-analysis of the deposited data

Results flagged for a closer look

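In groups of 4 libraries, a library far from the other 3 by Dixon's ratio was found 7 times among 56 groups of values, and chance alone gives about 1 in 20. Of these, 5 concerned amylase in CKO1, 4 of them single copies and 1 the sum of Amy1, Amy2a5 and Amy2b, and the values share reads, so they are not independent. Amy2a5 stood at 409 RPKM in CKO1 and at 214 to 232 RPKM in the other CKO libraries. Amy2a4 was 106.6 RPKM there against 11.2 to 16.4 RPKM, which was 1.27% of the amylase reads (Wilson 95% interval 1.25 to 1.29%) against 0.134 to 0.226%. Amy1, Amy2a5 and Amy2b together held 0.0921% of the reads of CKO1 (interval 0.0911 to 0.0931%) against 0.0595 to 0.0612%. Amy2a1 held 94.98% of the amylase reads of CKO1 (interval 94.93 to 95.02%) against 96.9 to 97.3%.

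The share of Amy1 in the amylase reads stood apart in 2 libraries. It was 0.239% in CKO4 (interval 0.230 to 0.248%) against 0.288 to 0.296% in the other CKO libraries, and 0.479% in WT2 (interval 0.464 to 0.494%) against 0.316 to 0.329% in the other WT libraries.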

How the results depend on the processing

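The lower levels of Amy2a5 and Amy2b kept direction and call in all the settings run, with log2 changes of -1.35 to -1.03 and -1.27 to -1.11. Pnliprp2 (0.30) lost its call with no filter (0.30, adjusted p = 0.0529), untrended variance (0.30, 0.0778) and limma-voom (0.30, 0.0606). It also lost the call with median centring (0.40, 0.0659), totals without digestive enzymes (0.39, 0.0685) and the replicate block (0.30, 0.119). Under each of these settings 0 of the 9 enzymes were higher, and the cause was not tested. Between libraries of equal replicate number, deviations from the group means had correlations of -0.12, -0.32, 0.14 and 0.03. Pairing of the libraries was not tested, and the block called 548 genes. Centring and totals without enzymes turned Pnlip to 0.0452 and 0.0382 and Clps to 0.0757 and 0.0686.

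The 610 genes past the threshold (121 higher, 489 lower) became 360 (63 higher, 297 lower) with a filter at 5 RPKM, which tests fewer genes. Higher genes numbered 305 with centring and 247 with totals without enzymes, and lower genes 267 with centring and 323 with limma-voom. Leaving out 1 library gave 185 genes (without WT1) to 686 (without CKO3), 47 to 242 of them higher and 130 to 600 lower, fewer libraries being tested. The total fell by over 1.5 times without any 1 WT library (185 to 297) and without CKO4 (267) or CKO2 (228). The 9 enzymes then gave 0 to 1 higher and 2 lower. In the same way the log2 changes ran from -0.39 to -0.28 for Amy1, -1.35 to -1.04 for Amy2a5, -1.27 to -1.13 for Amy2b, -0.13 to 0.0501 for Pnlip, -0.0248 to 0.0243 for Pnliprp1, 0.27 to 0.32 for Pnliprp2, -0.11 to 0.10 for Clps, -0.0653 to 0.0947 for Cel and -0.0417 to 0.0571 for Pla2g1b. They ran from -0.0293 to 0.11 for Amy2a1, -0.45 to 0.20 for Amy2a2, -0.54 to -0.28 for Amy2a3 (adjusted p = 0.0496 without CKO4) and -0.41 (without CKO1) to 0.63 for Amy2a4. Shares of reads differed by -0.12 to 0.14 percentage points for all amylases and -0.67 to 0.61 for lipases and colipase. At these read numbers counting error is small, and 4 libraries a group and reads shared between copies set the limits.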
